A study of Homo sapiens with 8 samples.

Results

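Forkhead, SOX and ETS transcription factors were examined in thyroid carcinoma cells treated with THZ1, a covalent inhibitor of the kinase CDK7. Members were taken by gene symbol: the FOX genes with a subfamily letter and number, the numbered SOX genes, and the ETS, ELF, ELK, ERF, ETV, EHF, FLI1 and GABPA symbols, without ETV4 and ETV5. Of the 12715 genes listed in the tables of either line, 45 matched: 24 FOX, 7 SOX and 14 ETS genes. Both lines listed 35 of them. FOXA1, FOXD2, FOXF2, FOXL2 and SOX15 were listed for CAL-62 alone, and FOXA3, FOXE1, FOXL1, FOXR2 and SOX21 for BCPAP alone.

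Poly(A)-selected RNA was sequenced from 4 groups of 2 libraries. CAL-62 cells received 100 nM THZ1 for 6 h or the vehicle DMSO, in DMEM with 20% serum. BCPAP cells received 100 nM THZ1 for 6 h or DMSO, in RPMI medium with 10% serum. The labels call both lines anaplastic thyroid carcinoma, while BCPAP is generally described as derived from a papillary carcinoma. Each line is a single culture lineage, so differences between them belong to these 2 lines, and the medium differed with the line.

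Forkhead factors bind DNA through a winged-helix domain. FOXA proteins open chromatin, FOXO proteins are held in the cytoplasm by AKT signalling, FOXM1 drives genes of mitosis, and FOXE1 is required for thyroid development. SOX factors bend DNA through an HMG box and set cell identity in many lineages. ETS factors bind a GGAA core; the ternary complex factors ELK1, ELK3 and ELK4 bind beside the serum response factor SRF and pass on ERK signals, GABPA acts at housekeeping promoters, and ERF and ETV6 are repressors.

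Levels are given in RPKM, here a read count scaled to transcript length and to a size factor of the library. A size factor evens out the typical gene between libraries, so each change is relative to the typical gene. The scale departed from the sum of reads by up to 19.5% in CAL-62 and 9.21% in BCPAP. Listed genes held 16682509 to 19989730 recovered reads per library. The tables listed genes by their DMSO level, with a lowest DMSO mean of 1.00, so a gene that was present under THZ1 alone would not be seen, and low members were listed through DMSO. Among 7 thyroid follicular markers, PAX8 was listed in CAL-62, and PAX8 and NKX2-1 in BCPAP. None of 5 fibroblast and none of 5 endothelial markers was listed in either line, and 1 of 5 blood markers, CD68, was listed in both. The summed level of the listed epithelial keratins and EPCAM was 1651 to 1776 RPKM under THZ1 and 895 to 924 RPKM under DMSO in CAL-62, and its part in the results was not tested. In bulk RNA, fewer cells with a transcript and less transcript per cell cannot be told apart.

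Promoter windows from RefSeq (GRCh38.p14) were matched for 36 members; SOX9, FOXN2, FOXC2, FLI1, FOXM1, ETS1, SOX15, SOX7 and FOXL1 had no entry. The last 100 bases before the start are shown for SOX12, FOXD1, FOXE1, FOXC1, ELK4 and GABPA. SOX12, FOXD1 and FOXE1 were lower under THZ1 by at least 1 log2 unit in a line with no overlap of libraries. FOXC1, ELK4 and GABPA hold the ETS word CCGGAA, and their libraries overlapped in both lines. The stretches read 5′ to 3′ on the gene's strand. A forkhead word in SOX12 and the ETS word in FOXC1, ELK4 and GABPA are in capitals. FOXD1 and FOXE1 held neither word in this stretch, but both held the shorter core GGAA, which was not counted.
SOX12, chr20:325452-325551, plus strand: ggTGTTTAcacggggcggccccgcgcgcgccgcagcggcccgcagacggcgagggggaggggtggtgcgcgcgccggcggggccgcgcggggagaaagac
FOXD1, chr5:73448778-73448877, minus strand: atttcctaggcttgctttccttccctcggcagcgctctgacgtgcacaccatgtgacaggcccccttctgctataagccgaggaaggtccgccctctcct
FOXE1, chr9:97853126-97853225, plus strand: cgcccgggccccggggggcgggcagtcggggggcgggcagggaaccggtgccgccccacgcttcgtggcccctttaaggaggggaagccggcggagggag
FOXC1, chr6:1609815-1609914, plus strand: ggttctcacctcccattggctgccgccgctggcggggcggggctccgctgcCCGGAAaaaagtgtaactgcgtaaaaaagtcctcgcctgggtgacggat
ELK4, chr1:205632012-205632111, minus strand: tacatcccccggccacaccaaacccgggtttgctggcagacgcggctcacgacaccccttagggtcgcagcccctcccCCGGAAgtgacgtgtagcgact
GABPA, chr21:25734872-25734971, plus strand: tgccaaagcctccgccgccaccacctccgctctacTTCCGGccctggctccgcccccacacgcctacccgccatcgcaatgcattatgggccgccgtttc

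SOX12 and FOXE1 had the most GC-rich of the 6 stretches, 82% and 80% GC with 19 and 12 CG steps, and FOXD1 the lowest at 59% with 5. The ETS word began 22 bases before the start in ELK4, 49 in FOXC1 and 65, on the other strand, in GABPA. Searched on both strands of the full windows of 250 bases before to 50 bases after the start, CCGGAA lay in 8 of 36 members (22.2%), in 17.2% of all 35114 windows and in 35.7% of the 8496 listed genes with a window. The forkhead word TAAACA lay in 6 of 36 members (16.7%), against 12.3% of all windows and 9.76% of the listed genes. The SOX word AACAAT lay in 5 of 36 (13.9%), against 10.1% of all windows and 7.64% of the listed genes. Members and listed genes were counted if any of their windows held the word, and the 36 members had 60 windows. The share of all windows is per single window, so it is not like for like with the members. ETV1 and FOXP1 held all 3 words. Of the 8 members with CCGGAA, ETV1, FOXN3 and FOXO3B had both THZ1 libraries below DMSO in CAL-62, and FOXJ3 had both above. ELK4, FOXC1, FOXP1 and GABPA overlapped there. A word match describes these windows and does not show binding.

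Under DMSO FOXM1, ELK3, FOXD1 and ETS1 were among the most abundant members of both lines, in a different order. SOX7 joined them in CAL-62 and FOXL1, which was not listed for CAL-62, in BCPAP. In CAL-62 the highest mean levels were FOXM1 at 94.4 RPKM, ELK3 at 83.4, FOXD1, a factor of mesenchyme and kidney stroma, at 72.5, SOX7 at 59.4 and ETS1 at 49.4. In BCPAP FOXD1 led with 85.7 RPKM, followed by ELK3 at 57.6, FOXL1 at 48.6, FOXM1 at 46.9 and ETS1 at 39.4. FOXE1 stood at 12.3 ± 2.98 RPKM (SD, n = 2) in BCPAP DMSO cells and was not listed for CAL-62.

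**Figure D1:**
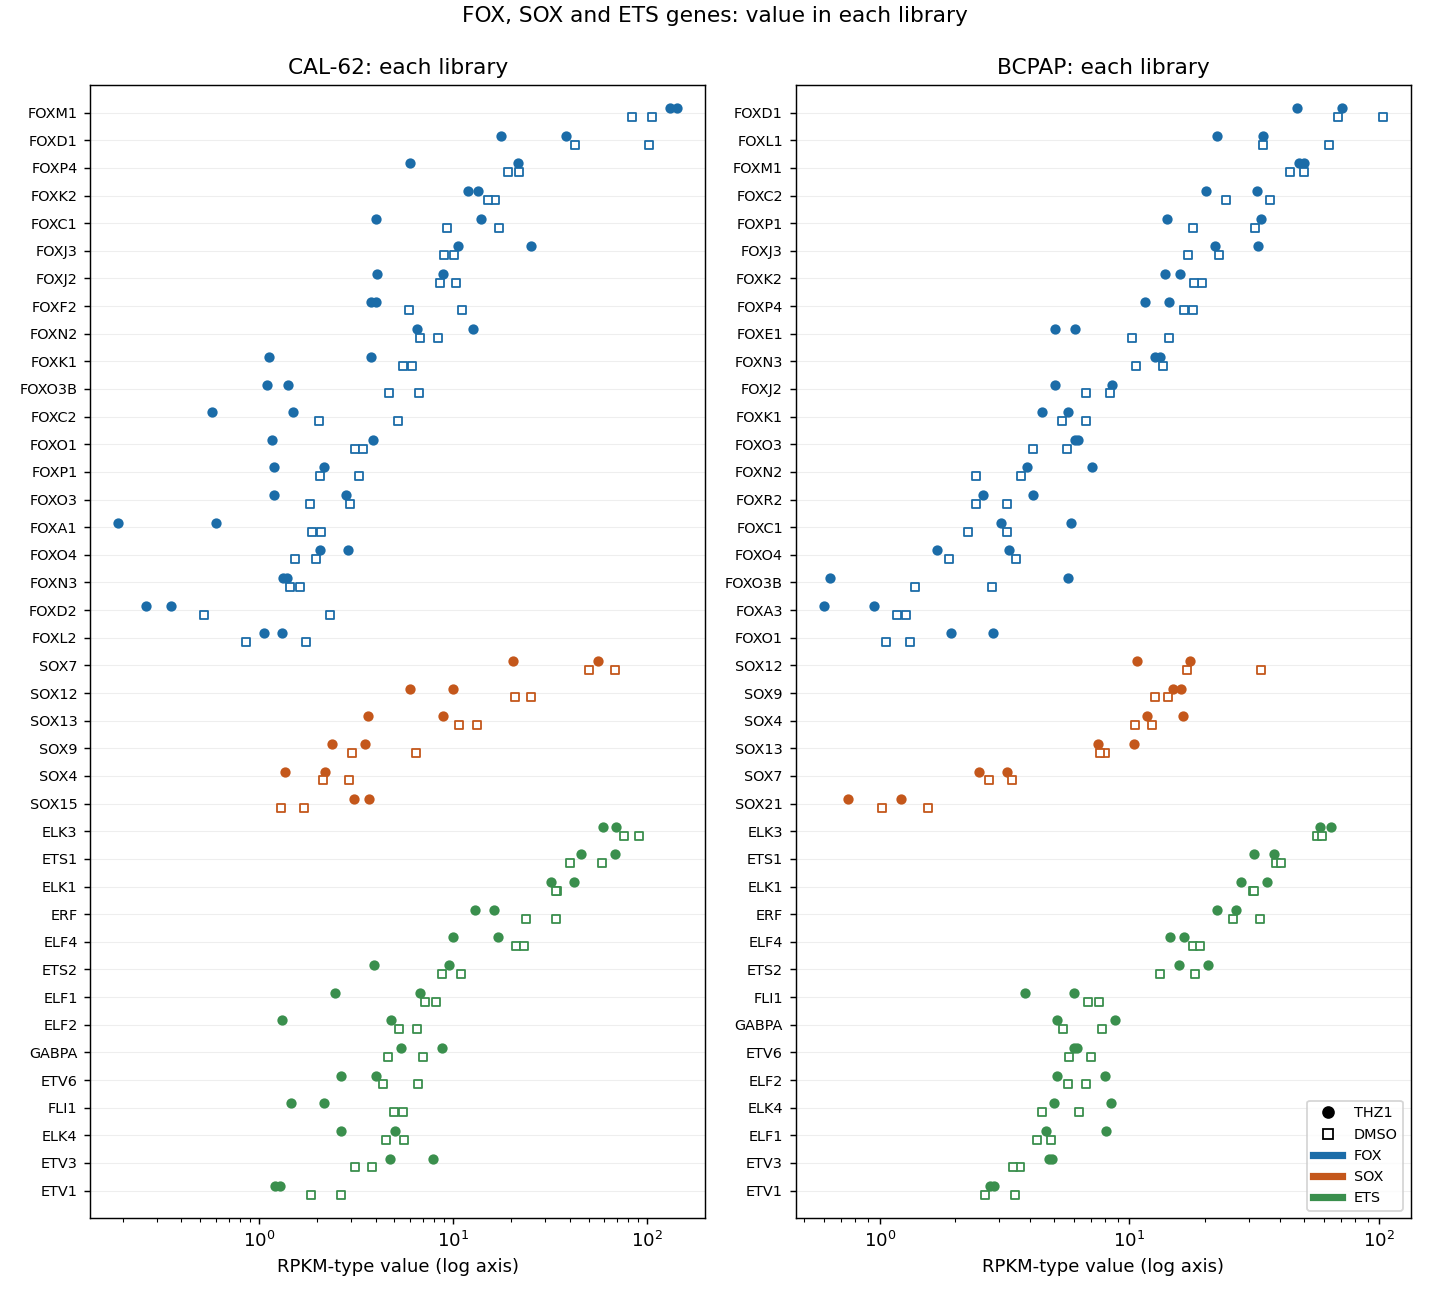
Level of each listed member in every library (RPKM, logarithmic axis), with filled circles for THZ1, open squares for DMSO, and 1 panel for each line. In CAL-62, FLI1 and SOX12 have both THZ1 circles left of both DMSO squares, and SOX15 has them on the right.

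Between the lines, 13 of the 35 shared members were higher in both CAL-62 DMSO libraries than in either BCPAP DMSO library, 10 were higher in BCPAP, and 12 overlapped. The 2 tables may have been scaled separately, so these levels are set side by side with no test. The median ratio over all shared genes was 1.01. SOX7, a member of the SOX18 subgroup known from endothelium, averaged 59.4 RPKM in CAL-62 and 3.06 RPKM in BCPAP, 19.4-fold higher in CAL-62. FOXC1, a mesoderm factor, averaged 13.3 RPKM in CAL-62 and 2.74 in BCPAP, while its close relative FOXC2 averaged 3.62 RPKM in CAL-62 and 30.4 in BCPAP. The 2 FOXC genes thus lay in opposite order in the 2 lines. FOXP1, a repressor known from lymphocytes and heart, averaged 2.68 RPKM in CAL-62 and 24.95 in BCPAP, and FOXN3, a checkpoint-associated repressor, 1.54 in CAL-62 and 12.1 in BCPAP. SOX4, common in carcinomas, averaged 2.54 RPKM in CAL-62 and 11.4 in BCPAP, and SOX9, a progenitor and cartilage factor, 4.74 in CAL-62 and 13.5 in BCPAP. More than 2-fold differences covered 6 members higher in CAL-62 and 7 higher in BCPAP, and none of the 13 was an ETS gene. The ETS levels of the lines lay closest for ETV3, 3.49 RPKM in CAL-62 and 3.54 in BCPAP, and for ERF, 28.9 in CAL-62 and 29.8 in BCPAP.

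With THZ1, most members in CAL-62 lay below their DMSO level, and no single member passed the test. Fitted changes, on the log2(RPKM + 1) scale, were negative for 30 of 39 tested members with a median of -0.52, against 48.2% negative and a median of 0.03 over all 11362 genes tested. Both THZ1 libraries lay below both DMSO libraries for 18 of 39 members (46.2%), against 27.4% of all genes, and above them for 5 (12.8%), against 30.1%. By limma with Benjamini-Hochberg adjustment 0 of 39 members had an adjusted p under 0.05, against 4.62% of all genes (0.581% higher and 4.04% lower); 14 of 39 had an unadjusted p under 0.05, against 30.1%, and limma-voom on the recovered reads called 1, FLI1. Medians were -0.46 for FOX, -0.63 for SOX and -0.55 for ETS members. One library carried much of the size: without CAL-62 THZ1 replicate 2 the members' median was -0.17, and -0.16, -0.21 and -0.20 for the 3 families.

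**Figure D2:**
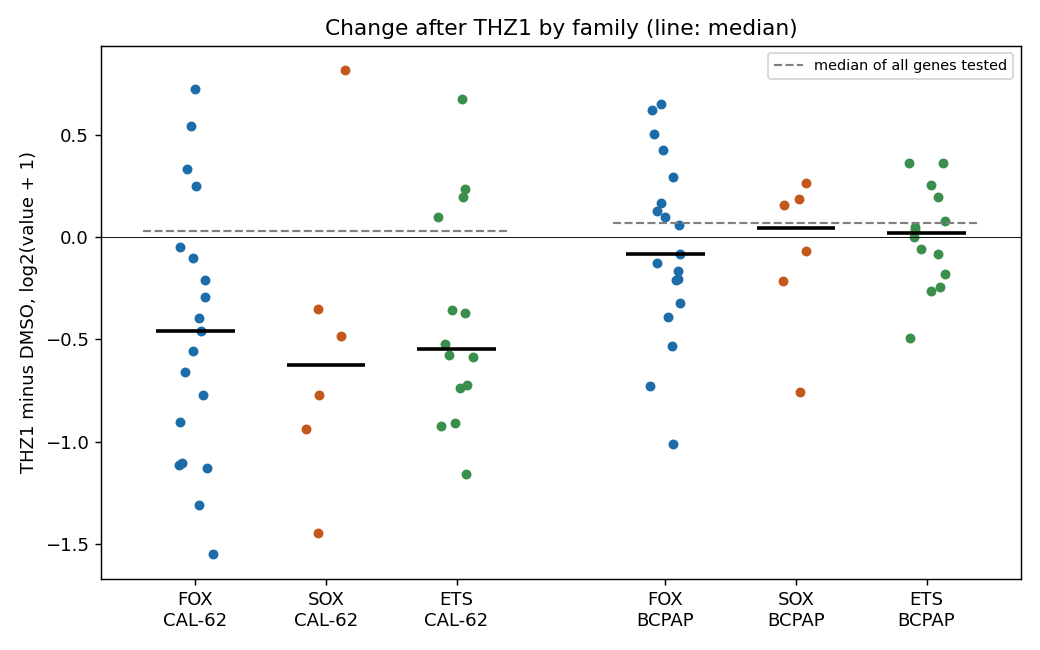
Change of each tested member with THZ1 against DMSO (log2(RPKM + 1) difference) by family, in CAL-62 and in BCPAP, with family medians as black lines and the medians of all genes tested, 0.03 and 0.07, as dashed lines. CAL-62 medians lie at -0.46, -0.63 and -0.55 for FOX, SOX and ETS, and BCPAP medians at -0.08, 0.04 and 0.02.

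In CAL-62, 7 of 39 members were separated and lower by at least 1 log2 unit, against 8.26% of all genes, and 0 were separated and higher by as much, against 1.61%. The 7 were the forkhead genes FOXA1, FOXC2, FOXD1, FOXK1 and FOXO3B together with SOX12 and FLI1. FOXA1 was listed and tested through DMSO alone, with a mean of 1.99 RPKM there and 0.397 RPKM with THZ1. Its count among the lower members therefore partly follows from the listing. FOXD1 had 17.6 and 38.2 RPKM with THZ1, against 42.4 and 103 RPKM with DMSO. FOXK1, a repressor of autophagy genes, had 1.13 and 3.80 RPKM with THZ1, against 5.55 and 6.19 with DMSO. FOXA1 had 0.605 and 0.189 RPKM with THZ1, against 1.89 and 2.09 with DMSO, on 26 and 11 reads against 127 and 153. In each of these the DMSO libraries were the higher, although all 3 also varied more than 2-fold between the THZ1 libraries. The change was -1.31 ± 0.50 (SE; adjusted p = 0.130) for FOXD1, -1.10 ± 0.38 (adjusted p = 0.105) for FOXK1 and -1.11 ± 0.25 (adjusted p = 0.0616) for FOXA1, all by limma.

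FOXC2, a regulator of lymphatic development and mesenchymal transition, had 1.51 and 0.572 RPKM with THZ1, against 2.04 and 5.19 with DMSO, a change of -1.13 ± 0.43. Its relative FOXC1 overlapped, with 14.02 and 4.03 RPKM with THZ1, against 9.28 and 17.4 with DMSO. FOXF2, a mesenchymal factor, had 3.81 and 4.03 RPKM with THZ1, against 5.95 and 11.2 with DMSO. Separate groups were also seen at smaller size for FOXK2, a relative of FOXK1, at 12.0 and 13.5 RPKM with THZ1, against 16.4 and 15.2 with DMSO. FOXN3 lay at 1.33 and 1.39 RPKM with THZ1, against 1.45 and 1.63 with DMSO. FOXD2, a relative of FOXD1 that was below the filter, lay at 0.263 and 0.355 RPKM with THZ1, against 0.525 and 2.34 with DMSO.

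Several other forkhead genes of CAL-62 overlapped. FOXP4 had 6.02 and 21.7 RPKM with THZ1, against 19.1 and 21.9 with DMSO, and its relative FOXP1 had 2.17 and 1.19 with THZ1, against 3.30 and 2.06 with DMSO. FOXJ2 had 8.85 and 4.09 RPKM with THZ1, against 8.54 and 10.4 with DMSO, and FOXN2 had 12.7 and 6.51 with THZ1, against 6.75 and 8.37 with DMSO. FOXL2, an ovarian factor, stayed near 1 RPKM, at 1.32 and 1.06 with THZ1, against 0.858 and 1.76 with DMSO.

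A few forkhead genes of CAL-62 lay above their DMSO level, and the FOXO genes were mixed. FOXM1 had 143 and 131 RPKM with THZ1, against 106 and 83.3 with DMSO, a change of 0.54 ± 0.20 (adjusted p = 0.123, limma). FOXO4 had 2.08 and 2.89 RPKM with THZ1, against 1.54 and 1.98 with DMSO. FOXJ3, known from muscle and spermatogenesis in mice, had 25.1 and 10.7 RPKM with THZ1, against 10.1 and 9.02 with DMSO. These 3 were the forkhead members whose THZ1 libraries both lay above DMSO, and their direction was negative when values were set relative to ribosomal protein or mitochondrially encoded genes. FOXO1 overlapped at 3.86 and 1.17 RPKM with THZ1, against 3.12 and 3.43 with DMSO, and so did FOXO3 at 2.808 and 1.1997 with THZ1, against 1.83 and 2.96 with DMSO. FOXO3B, a near-identical copy of FOXO3 whose reads are uncertain, had 1.11 and 1.42 RPKM with THZ1, against 4.70 and 6.70 with DMSO.

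**Figure D3:**
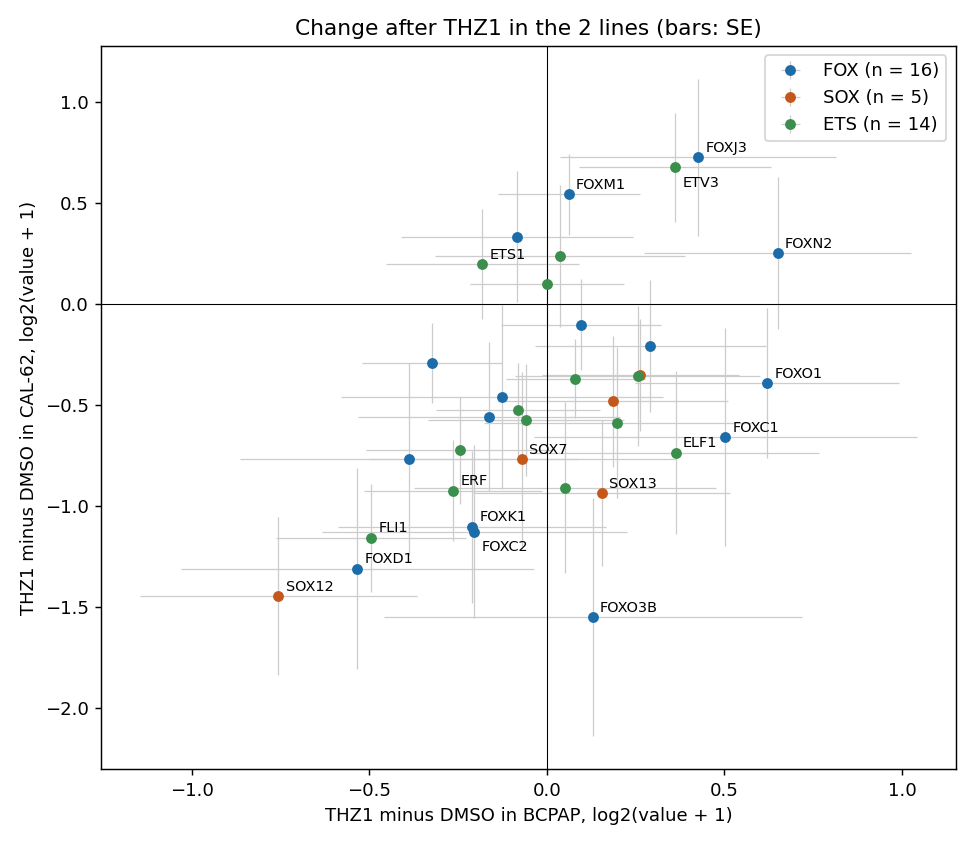
Change of each member with THZ1 against DMSO (log2(RPKM + 1) difference), CAL-62 on the vertical and BCPAP on the horizontal axis, for the 35 members listed in both, coloured by family with bars for the SE. FLI1 and SOX12 are negative on both axes, at -1.16 and -1.45 in CAL-62 and -0.49 and -0.76 in BCPAP, while ETV3 is positive on both.

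Changes were negative for 5 of 6 tested SOX members in CAL-62, against 48.2% of all genes. This rested on replicate number 2, where 5 of 6 were lower under THZ1 with a median of -1.19. Within number 1, 2 of 6 were lower with a median of 0.09. Of all genes, 46.8% were lower in number 1 and 46.1% in number 2. SOX12, a SOXC factor expressed broadly in embryos, had 5.99 and 10.1 RPKM with THZ1, against 20.9 and 25.2 with DMSO, a change of -1.45 ± 0.39 (adjusted p = 0.0684, limma; 0.00665 to 0.281 over the alternatives). SOX13, a SOXD factor, had 8.87 and 3.66 RPKM with THZ1, against 10.8 and 13.3 with DMSO. SOX15 had 3.69 and 3.11 RPKM with THZ1, against 1.30 and 1.70 with DMSO, a change of 0.82 ± 0.25 (adjusted p = 0.0976). SOX12 and SOX13 were therefore the separated lower pair and SOX15 the one separated higher SOX gene. SOX7, abundant in this line, overlapped at 56.2 and 20.4 RPKM with THZ1, against 50.3 and 68.5 with DMSO. SOX4 had 2.20 and 1.37 RPKM with THZ1, against 2.15 and 2.93 with DMSO, and SOX9 had 3.53 and 2.39 with THZ1, against 3.03 and 6.46 with DMSO, so both overlapped.

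Among the ETS genes of CAL-62, 8 of 14 were separated below DMSO, against 27.4% of all genes, and 1 above, against 30.1%. FLI1, an activator known from blood and endothelium, had 1.47 and 2.16 RPKM with THZ1, against 5.52 and 4.96 with DMSO. These values rested on 82 and 163 reads with THZ1 and 481 and 472 with DMSO. The change of -1.16 ± 0.27 had the smallest adjusted p of all members, 0.0522 by limma, with 0.00946 to 0.237 over the alternatives. ERF, a repressor under ERK control, had 13.0 and 16.2 RPKM with THZ1, against 23.9 and 33.8 with DMSO, a change of -0.92 ± 0.25 (adjusted p = 0.0697, limma). ETV6, also a repressor, had 2.66 and 4.02 RPKM with THZ1, against 4.35 and 6.62 with DMSO. ERF and ETV6 were thus lower in both THZ1 libraries, unlike the repressor ETV3 described below.

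The ELF activators were lower as well, ELF4 with 10.0 and 17.1 RPKM with THZ1, against 21.3 and 23.4 with DMSO. ELF2 had 4.79 and 1.32 RPKM with THZ1, against 5.27 and 6.55 with DMSO, and ELF1 had 6.78 and 2.47 with THZ1, against 7.19 and 8.16 with DMSO. For ELF1 and ELF2 the first THZ1 library lay just under DMSO and the second far under it. Of the ternary complex factors, ELK3 was separated at 59.5 and 68.9 RPKM with THZ1, against 75.8 and 91.1 with DMSO. ELK1 overlapped at 32.0 and 42.1 RPKM with THZ1, against 34.3 and 34.2 with DMSO, as did ELK4 at 5.05 and 2.65 with THZ1, against 5.57 and 4.52 with DMSO. ETS1, the founding member, had 68.2 and 45.5 RPKM with THZ1, against 40.1 and 58.8 with DMSO, and GABPA had 8.82 and 5.40 with THZ1, against 7.01 and 4.65 with DMSO. Neither of these showed separate groups, nor did ETS2, at 9.57 and 3.93 RPKM with THZ1, against 8.77 and 11.05 with DMSO. ETV1, a PEA3 factor, had 1.28 and 1.21 RPKM with THZ1, against 2.65 and 1.85 with DMSO. ETV3, a repressor, had 7.94 and 4.73 RPKM with THZ1, against 3.13 and 3.85 with DMSO; its change of 0.68 ± 0.27 turned to -0.093 relative to ribosomal protein genes and -0.22 relative to mitochondrially encoded genes.

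In BCPAP the members were split evenly around their DMSO level. Changes were negative for 20 of 39 tested members, with a median of -0.00053, against 41.4% negative and a median of 0.07 over all 11743 genes. THZ1 libraries were separated below DMSO for 7 members (17.9%), against 16.4% of all genes, and above for 5 (12.8%), against 21.9%. No member and 0% of all genes passed limma's adjusted threshold; 1 of 39 members had an unadjusted p under 0.05, against 4.01% of all genes, and limma-voom called 0 members.

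That member was the thyroid factor FOXE1, the 1 member separated and lower by at least 1 log2 unit in BCPAP (0.554% of all genes), with 5.03 and 6.05 RPKM with THZ1, against 10.2 and 14.4 with DMSO. It rested on 315 and 371 reads with THZ1 and 701 and 1029 with DMSO, and its change was -1.01 ± 0.28 (adjusted p = 0.932, limma; 0.257 to 1.00 over the alternatives). PAX8, which acts with FOXE1 in thyroid cells, lay at 30.8 and 42.5 RPKM with THZ1, against 57.0 and 82.5 with DMSO. PAX8 was lower in CAL-62 too, where FOXE1 was not listed, at 5.20 and 29.8 RPKM with THZ1, against 91.1 and 117 with DMSO. NKX2-1, the other thyroid factor listed in BCPAP, overlapped there at 34.8 and 54.9 RPKM with THZ1, against 30.3 and 50.8 with DMSO. FOXL1, a mesenchymal gut factor, had 22.4 and 34.1 RPKM with THZ1, against 34.3 and 62.8 with DMSO, so its groups only just missed overlapping. FOXP4 had 11.6 and 14.3 RPKM with THZ1, against 16.5 and 17.9 with DMSO. FOXA3, a liver and gut factor below the filter, had 0.945 and 0.596 RPKM with THZ1, against 1.17 and 1.27 with DMSO.

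FOXO1, FOXO3 and FOXN2 were the separated higher forkhead members of BCPAP, while FOXO4 and FOXO3B overlapped. FOXO1 had 2.85 and 1.93 RPKM with THZ1, against 1.32 and 1.06 with DMSO, a change of 0.62. FOXO3 had 6.03 and 6.19 RPKM with THZ1, against 4.11 and 5.61 with DMSO, a change of 0.29 that was -0.063 relative to mitochondrially encoded genes. FOXN2 had 7.10 and 3.88 RPKM with THZ1, against 3.68 and 2.44 with DMSO. FOXM1 overlapped here, at 47.7 and 50.1 RPKM with THZ1, against 49.8 and 44.0 with DMSO. FOXO3B ranged from 0.630 to 5.66 RPKM within the THZ1 pair alone. FOXP1, abundant in this line, varied more between replicates than with treatment, at 33.7 and 14.1 RPKM with THZ1, against 31.9 and 18.0 with DMSO. FOXC2 overlapped at 20.3 and 32.5 RPKM with THZ1, against 24.3 and 36.5 with DMSO, and FOXJ3 at 32.8 and 22.1 with THZ1, against 22.8 and 17.2 with DMSO. The low FOXR2 overlapped too, at 4.10 and 2.59 RPKM with THZ1, against 3.22 and 2.44 with DMSO, as did FOXC1, FOXJ2, FOXK1, FOXN3 and FOXO4.

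Among the other families in BCPAP, SOX9 had 16.01 and 14.90 RPKM with THZ1, against 14.3 and 12.6 with DMSO, a change of 0.19 that was -0.023 relative to ribosomal protein genes and -0.19 relative to mitochondrially encoded genes. SOX12 overlapped at 10.7 and 17.6 RPKM with THZ1, against 17.0 and 33.6 with DMSO. FLI1 had 6.01 and 3.82 RPKM with THZ1, against 7.57 and 6.82 with DMSO. ETS1 had 37.8 and 31.7 RPKM with THZ1, against 38.5 and 40.3 with DMSO. The other separated members were ELF4 and FOXK2, both lower, and ETV3, higher, at 4.89 and 4.78 RPKM with THZ1, against 3.66 and 3.43 with DMSO. The abundant FOXD1 overlapped in BCPAP at 46.9 and 70.8 RPKM with THZ1, against 68.2 and 103 with DMSO, as did ELK3 at 57.8 and 64.3 with THZ1, against 56.4 and 58.8 with DMSO. ELK1 had 27.9 and 35.5 RPKM with THZ1, against 31.4 and 31.7 with DMSO, and SOX4 16.4 and 11.7 with THZ1, against 12.3 and 10.6 with DMSO. ERF, separated in CAL-62, had 22.4 and 26.6 RPKM with THZ1, against 26.1 and 33.5 with DMSO in BCPAP, an overlap. SOX7 had 3.25 and 2.49 RPKM with THZ1, against 3.38 and 2.73 with DMSO, and SOX21, a neural factor, 0.748 and 1.21 with THZ1, against 1.02 and 1.56 with DMSO. SOX13, ELF1, ELF2, ETV1, ETV6, GABPA, ELK4 and ETS2 also overlapped in BCPAP, with GABPA at 8.73 and 5.12 RPKM with THZ1, against 7.79 and 5.43 with DMSO.

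Over both lines, ELF4, FLI1 and FOXK2 were separated below DMSO in each, 3 of 35 shared members against 11.2% of all genes. ETV3 alone was separated above in each, against 13.3% of all genes, and no member was separated in opposite directions, against 1.81% of all genes.

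The responses of the lines were compared by the difference of their log2 changes, CAL-62 minus BCPAP. It was negative for 27 of 35 shared members with a median of -0.52, against -0.01 over all 10653 genes; limma called 0 members and 0% of all genes, 0 of 35 members had an unadjusted p under 0.05, against 5.28% of all genes, and limma-voom called 0 members. The smallest unadjusted p belonged to SOX13, whose difference was -1.09 with a 95% interval of -2.28 to 0.09 (adjusted p = 0.843, limma). FOXO1 differed by -1.01, with an interval of -2.23 to 0.20, and ELF1 by -1.10, with -2.42 to 0.22. The intervals of FLI1, -1.54 to 0.21, and FOXM1, -0.17 to 1.14, also included 0. A difference between the lines was therefore not shown for any member.

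Base composition and replicate number moved with these values, and their part in the results was not tested. Within replicate number 1 the CAL-62 members had a median THZ1 minus DMSO change of -0.10, with 22 of 39 lower, and within number 2 a median of -0.60, with 32 of 39 lower; all genes had medians of 0.06 and 0.07. In BCPAP the members' medians were 0.05 in number 1 and -0.10 in number 2. Across 38 members with a transcript GC content, Pearson's r of GC with replicate 2 minus replicate 1 was 0.47 in CAL-62 THZ1 and 0.53 in CAL-62 DMSO cells, and 0.65 in BCPAP THZ1 and 0.55 in BCPAP DMSO cells. GC and the THZ1 change had an r of -0.31 over members in CAL-62, against 0.03 over all genes, and of -0.56 in BCPAP, against -0.23; members share libraries, so these are descriptions. In CAL-62 the 11 members under 45% GC had a median change of -0.36, the 11 from 45% to 55% a median of -0.56 and the 16 above a median of -0.75, against 0.04, 0.05 and 0.10 over all genes of these classes. All 6 tested members with a single exon, a common form among FOX and SOX genes, had negative changes in CAL-62, with a median of -0.89. Of the 32 with more exons 23 were negative, with a median of -0.47, and of all genes tested 48.2% were negative.

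**Figure D4:**
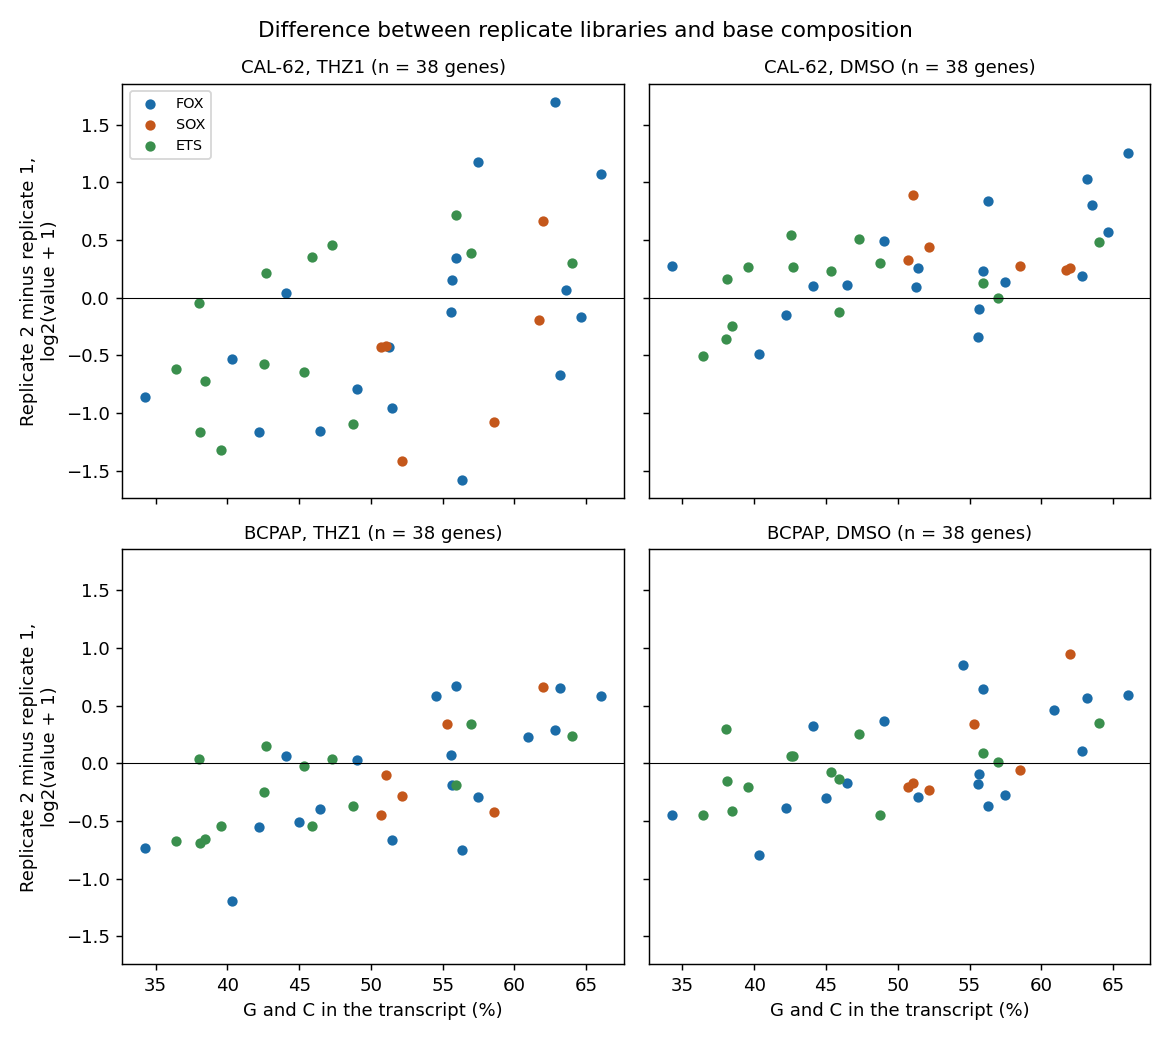
Replicate 2 minus replicate 1 (log2(RPKM + 1) difference) of each member against the GC content of its longest coding transcript (percent), in 4 panels for THZ1 and DMSO in CAL-62 and in BCPAP, with points coloured by family. GC-rich members tend to lie higher in each panel, with Pearson's r of 0.47 in CAL-62 THZ1, 0.53 in CAL-62 DMSO, 0.65 in BCPAP THZ1 and 0.55 in BCPAP DMSO.

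Genes acting downstream of or beside these factors were counted from 4 lists, chosen by known function. Over all genes limma called 4.62% in CAL-62 (0.581% higher, 4.04% lower) and 0% in BCPAP, 30.1% and 4.01% had an unadjusted p under 0.05, and the median changes were 0.03 and 0.07. Of 21 tested FOXO targets, limma called 0 in CAL-62 (3 had an unadjusted p under 0.05; median change -0.04), and of 20 in BCPAP 0 (1 unadjusted; median 0.19). Of 25 FOXM1 targets, it called 0 in CAL-62 (6 unadjusted; median 0.01) and 0 in BCPAP (0 unadjusted; median 0.05). Targets of the ternary complex factors had a median of 0.64 over 16 genes in CAL-62, with 1 called higher (6 unadjusted), and of 0.28 over 15 in BCPAP, with 0 called (2 unadjusted). They went both ways in CAL-62, with 6 of 16 negative, and ranged from -2.17 for DUSP1 to 3.004 for ARC. The CAL-62 DMSO libraries differed widely for EGR1 (9.47 and 382 RPKM), DUSP1 (18.4 and 141) and JUNB (12.6 and 78.3). SRF lay close, at 33.5 and 34.7. The SE of the change was 1.36 for EGR1, 0.80 for DUSP1 and 0.71 for JUNB. In BCPAP 3 of 15 were negative. The called gene was ARC, an immediate early gene of the SRF group, which rose in CAL-62 to 10.9 and 21.0 RPKM with THZ1, against 0.756 and 1.31 with DMSO. Its change was 3.004 ± 0.37 (adjusted p = 0.0227, limma), and the adjusted p was 0.113 without CAL-62 DMSO replicate 1, 0.149 without CAL-62 DMSO replicate 2 and 0.0842 when CAL-62 was fitted alone.

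Of 22 cofactors and regulators tested in CAL-62, 1 was called higher and 1 lower (6 unadjusted), with a median of 0.03; of 24 in BCPAP 0 were called (0 unadjusted), with a median of 0.21. CTNNB1, β-catenin, which binds several SOX and FOXO proteins, rose in CAL-62 to 117 and 89.2 RPKM with THZ1, against 55.6 and 51.9 with DMSO, although relative to ribosomal protein genes its change was -0.016 and relative to mitochondrially encoded genes -0.13. MKL2, an actin-regulated SRF coactivator, fell in CAL-62 to 2.05 and 1.92 RPKM with THZ1, against 5.30 and 5.41 with DMSO. The changes were 0.92 ± 0.20 for CTNNB1 (adjusted p = 0.0476) and -1.09 ± 0.24 for MKL2 (adjusted p = 0.0446), both by limma. Neither call held when any 1 of the 4 CAL-62 libraries or either BCPAP DMSO library was left out, with adjusted p of 0.0504 to 0.249 for CTNNB1 and 0.0802 to 0.236 for MKL2.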

How the data were processed

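The deposited tables hold 1 value per gene and library. Taken as RPKM from their values, they were read as the authors' reads per kilobase scaled by size factors; Bowtie2, DESeq2 and the build hg19 are named without roles per the submitters' processing notes, while strand and multi-mapping handling have no stated source. Whole reads were recovered from the value steps for all 12715 genes (tolerance 0.02 reads), the median gene having 399 to 730 of them in a library; the precision of a value follows from its reads, and covers counting error only.

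Genes with a mean of at least 1 were tested on log2(RPKM + 1) with limma 3.58.1 in R 4.3.3 (trended variance, 4 group means, Benjamini-Hochberg adjustment over all genes of a contrast, calls at an adjusted p under 0.05). Genes listed for 1 line were fitted on its 4 libraries. The method was tested on simulated counts whose noise was independent between libraries. Those counts did not carry the shared deviations of same-numbered libraries, so that test does not cover them. Nothing says the replicates were separate cultures, so p-values reflect only how far same-group libraries scatter, possibly for technical reasons.

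Named were members with a call, members without overlap and a change of at least 1, the 3 most abundant of each family, fixed role genes and called list genes; other separated or overlapping members and PAX8 were named after their values were seen. Members and lists were chosen with earlier results of these data known. GC content and exons came from the longest coding transcript of the GENCODE annotation.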

Additional observations from a re-analysis of the deposited data

How the results depend on the processing

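With 2 libraries a group, only large changes could pass, and members near 1 RPKM rest on few reads. The number of members called in CAL-62, 0 as reported, was 1 with a pseudocount of 0.1 (4.81% of all genes called), 1 with limma-voom on recovered reads (5.48%), 3 with upper-quartile scaling (6.40%), 7 with the sum of reads as the scale (13.2%), 18 relative to ribosomal protein genes (26.8%) and 1 relative to mitochondrially encoded genes (4.13%), against 4.62% as reported. The 4 scalings placed the median of all genes in CAL-62 at -0.11, -0.33, -0.76 and -0.85, and the members' median at -0.63, -0.82, -1.25 and -1.36. Leaving out 1 library left 1 library in its group, so only the size of the change is given. The members' median was -0.60 and -0.39 without CAL-62 DMSO replicate 1 and 2, against 0.05 and 0.02 over all genes. It was -0.65 and -0.17 without CAL-62 THZ1 replicate 1 and 2, against 0.03 and 0.05. Without a BCPAP library it stayed at -0.52. A pseudocount of 5 (4.08% of all genes called), no filter (4.60%) and a mean of at least 5 (2.43%) gave 0 members. Fitting CAL-62 alone gave 0 members and 0% of all genes. All 19 alternatives run in BCPAP and all 18 run for the difference of responses gave 0; a fit of 1 line alone gives no difference.

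Same-numbered libraries share a number that no label ties to a batch. Their deviations correlated at 0.469 in CAL-62 and 0.779 in BCPAP. With the replicate number as a block, 12 of 39 members and 40.2% of all genes were called in CAL-62, 10 of them lower, and 0 in BCPAP.

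Alternatives were counted over 42 results. These were changes of a gene in a line and, for ELF1, FOXO1, FOXO3B and SOX13, also differences of response between the lines. Of 777 alternative values, 695 kept direction and call, 46 gained a call, 23 lost one and 13 changed sign. The sign changes in CAL-62, relative to ribosomal protein and to mitochondrially encoded genes, were -0.093 and -0.22 for ETV3, -0.14 and -0.27 for FOXJ3, -0.39 and -0.51 for FOXM1, -0.30 and -0.36 for FOXO4, and -0.016 and -0.13 for CTNNB1. In BCPAP they were -0.023 and -0.19 for SOX9, and -0.063 for FOXO3 relative to mitochondrially encoded genes. The cause was not tested.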
